A study of Mus musculus with 12 samples.

Results

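The FoxO factors Foxo1, Foxo3 and Foxo4 and the Mastermind coactivators Maml1, Maml2 and Maml3, transcription regulators reported elsewhere as targets of the microRNA miR-182, were followed through loss and gain of that miRNA. They were taken by gene symbol, by a rule that uses no measured value but was set with earlier results of these data known, and all 6 were found among the 24421 genes listed. Each passed the filter on low values in every comparison, so the accounts that follow cover 6 of 6 members. The cells were bone marrow-derived macrophages (BMMs), the precursors of osteoclasts, from C57BL/6 mice. RNA was sequenced from 12 libraries, 2 for each of 6 conditions. In the loss of function experiment, WT cells carried Mir182+/+LysMcre(+) and Mir182ΔM/ΔM cells carried Mir182flox/floxLysMcre(+), and each genotype was taken at baseline (Basal) or after RANKL, the cytokine that drives osteoclast formation. In the gain of function experiment, Control cells carried LysMcre(+) and Mir182mTg cells carried LSL-Mir182LysMcre(+), both at baseline only. All cells were grown in M-CSF for 3 days, and RANKL was given for 5 days. Every group carried LysMcre, which puts Cre under the lysozyme M promoter in macrophages and neutrophils, so deletion or overexpression of Mir182 was limited to cells in which that promoter is active. The study describes the 2 libraries of a condition as biological replicates. The number of mice behind a library is not given in the sources used here, and the replicates also differ in their labels for RNA and aligner, so the p-values measure the spread between these libraries, technical differences included.

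FoxO factors are transcription factors that switch on genes for antioxidant defence, autophagy and cell cycle arrest. Growth factor signaling through PI3 kinase and Akt phosphorylates them, and 14-3-3 proteins then hold them out of the nucleus. Mastermind proteins bind the complex of the Notch intracellular domain and Rbpj on DNA and recruit the acetyltransferases that activate Notch target genes. In the osteoclast lineage FoxO factors have been described as restraints on differentiation, and Notch signals as restraints or promoters depending on the receptor and the stage. A microRNA pairs with sites in the 3′ UTR of a transcript mainly through its seed, bases 2 to 8 counted from its 5′ end, and lowers the level or the translation of that transcript. A target that responds at the RNA level would be higher where the microRNA is lost and lower where it is added.

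The sequences of miR-182-5p and of its cluster neighbour miR-96-5p are shown because the search for sites rests on the seed, in capitals, and because miR-96 shares bases 2 to 7 with miR-182. Both are RefSeq sequences of GRCm38.p6, encoded on the minus strand at chr6:30165962-30165986 and chr6:30169506-30169528.
miR-182-5p: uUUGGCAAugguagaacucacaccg
miR-96-5p: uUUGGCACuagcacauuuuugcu

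Sites were searched on the mRNA strand of every 3′ UTR that GENCODE vM21 gives the 6 genes (build GRCm38, or mm10). The main definition was the 7 bases TGCCAAA, which pair with bases 2 to 7 of the miRNA and have an A opposite base 1. Foxo1, Foxo3, Maml1 and Maml2 had such a site, 4 of 6 members. Of all 19503 genes with a 3′ UTR, 12.9% had one, and 14.9% of the 10986 genes that reached 1 CPM in 2 libraries did. The longest 3′ UTRs of the members ran from 1351 bases in Foxo4 to 6240 in Foxo1, against a median of 1188 for those expressed genes, and a longer UTR holds more matches of any short word. With TTGCCAA, the match to bases 2 to 8, the count was 2 of 6 members (Foxo1 and Foxo3) against 11.5% of all genes. With the 8 bases TTGCCAAA, which hold both 7-base words, it was again Foxo1 and Foxo3, against 4.64% of all genes. With the 6 bases TGCCAA alone, all 6 members had a match, against 31.7% of all genes. TGCCAAA and TGCCAA also match miR-96. A match describes letters in the transcript and does not show that the miRNA binds there.

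A match of the strongest kind found in each member, and the second 8-base match of Foxo3, are printed so that the kind of site can be set beside the changes given below. Capitals mark the bases that pair with the seed and, where present, the A opposite base 1. Coordinates are those of the capitals, and every site lies in the last coding exon's 3′ UTR: exon 3 in Foxo1 and Foxo4, exon 4 in Foxo3, Maml1 and Maml3, and exon 5 in Maml2.
Foxo1, chr3:52350882-52350889, plus strand: tgtgtttgctcTTGCCAAAagctgccggag
Foxo3, chr10:42186251-42186258, minus strand: gagaaaaccctTTGCCAAAtctgctctcag
Foxo3, chr10:42185432-42185439, minus strand: gcctctgcccgTTGCCAAAtgccacgaatg
Foxo4, chrX:101259755-101259760, plus strand: ttgtctcactgTGCCAAttagggggtag
Maml1, chr11:50257294-50257300, minus strand: gtgactgcagaTGCCAAAatgattaggat
Maml2, chr9:13706660-13706666, plus strand: ggatactgtaaTGCCAAActgctgaagtc
Maml3, chr3:51689029-51689034, minus strand: agttcagtgtcTGCCAAgccgggcccca
The first Foxo3 site was in 2 of its 4 annotated transcripts with a 3′ UTR and the second in 1 of 4. Maml1 had another 7-base match of the same kind, at chr11:50258360-50258366, in 1 of its 2 transcripts. The printed Maml1 site was in 2 of 2. The Foxo4 and Maml3 matches are 6-base matches, the weakest kind listed.

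The libraries held 24951280 to 33050619 reads on genes, at which 3 reads are worth 0.0908 to 0.120 CPM. Macrophage markers were present in all of them, with a summed level of 5704 to 8682 CPM over 8 markers and none at 0. The 10 osteoclast markers summed to 115.9 to 168.1 CPM at baseline, 3181 to 3213 CPM in Mir182ΔM/ΔM cells after RANKL and 10677 to 10887 CPM in WT cells after RANKL. The Mir182 row was at 0 in 9 libraries and at 1 read in Mir182ΔM/ΔM Basal replicate 1, and it stood at 2.39 and 4.40 CPM in the 2 Mir182mTg libraries, so the gain is visible in these data and the loss is not testable from this row. The libraries labelled WT RANKL stood apart from the WT Basal libraries in a pair of genes that differ between mouse lines. Lyz2, the lysozyme M gene that carries the Cre insertion in LysMcre mice, was between 4117 and 7062 CPM in the 6 libraries of WT RANKL, Control and Mir182mTg, and between 22.5 and 44.0 CPM in the other 6. Ifi202b, an interferon-inducible gene whose expression varies with mouse strain, was at most 1.117 CPM in the former 6 and 82.1 to 152.4 CPM in the latter. In every comparison of WT RANKL with another loss of function group, this difference and the one under study cannot be told apart. The comparisons of Mir182ΔM/ΔM RANKL with Mir182ΔM/ΔM Basal and of the genotypes at baseline contrast none of the WT RANKL libraries, and for the 6 members the response of WT cells was tested against both WT Basal and Control Basal.

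**Figure D1:**
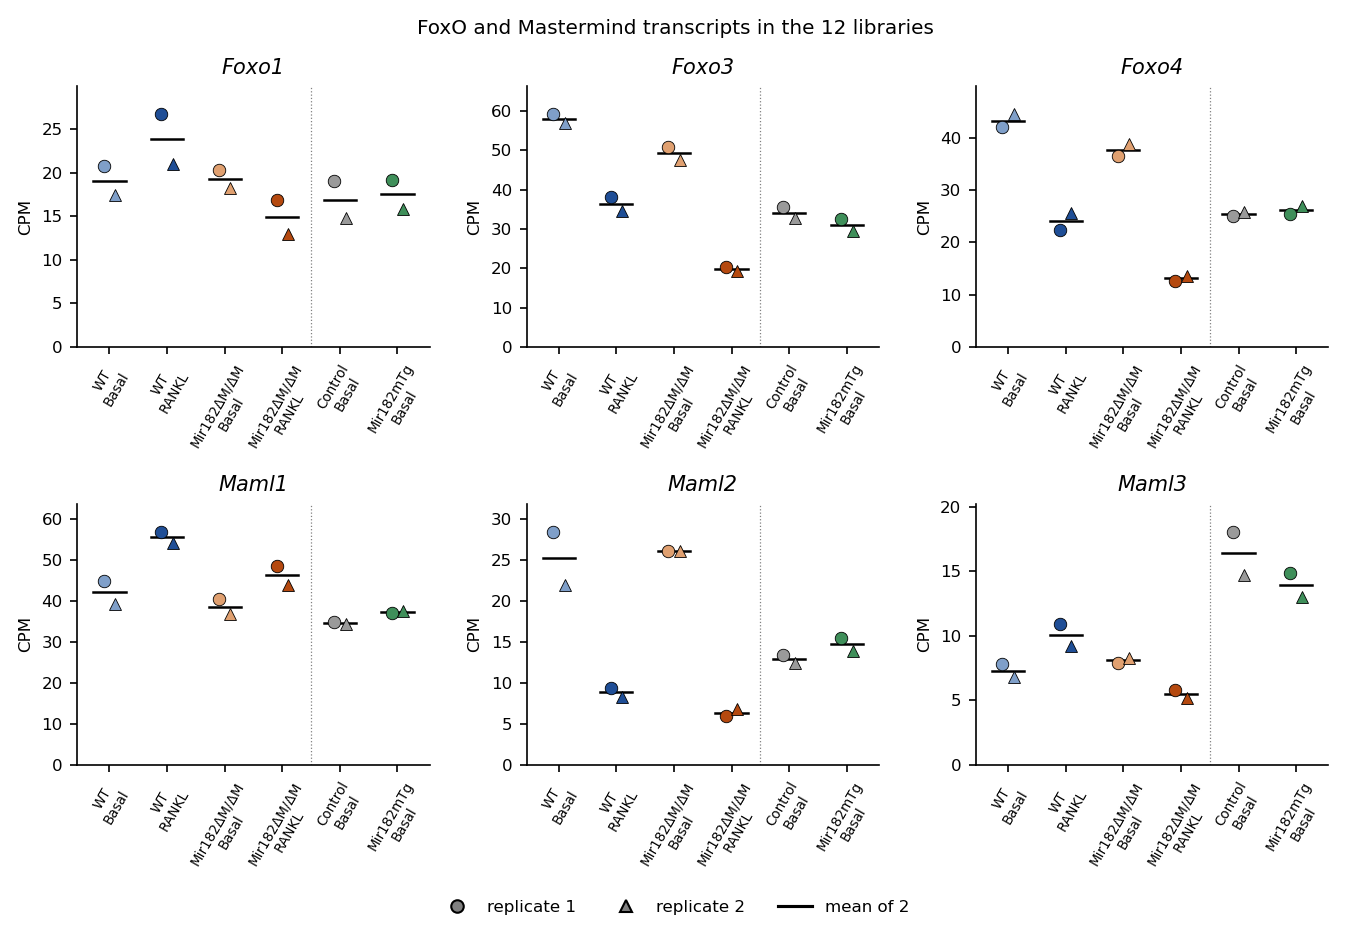
CPM of each of the 6 genes (y axis, from 0, one scale per gene) in the 6 conditions (x axis), with a circle for replicate 1, a triangle for replicate 2 and a bar for their mean; the dotted line separates the loss and gain of function experiments. By mean, Foxo1, Foxo3, Foxo4, Maml2 and Maml3 were lowest in Mir182ΔM/ΔM cells after RANKL. Foxo3, Foxo4 and Maml2 were highest in the WT and Mir182ΔM/ΔM cells at baseline, Foxo1 and Maml1 in WT cells after RANKL, and Maml3 in Control cells.

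All 6 genes were transcribed in these macrophages. Between genes, levels were compared per length, with the authors' RPKM of replicate 1. In WT Basal cells Foxo3 stood at 20.5 RPKM, Foxo4 at 13.3, Maml1 at 8.09, Maml2 at 4.63, Foxo1 at 3.74 and Maml3 at 1.197. In Mir182ΔM/ΔM RANKL cells the order was Maml1 at 8.75 RPKM, Foxo3 at 7.07, Foxo4 at 4.02, Foxo1 at 3.03, Maml2 at 0.974 and Maml3 at 0.898. Foxo3 thus led the group at baseline and Maml1 after RANKL without miR-182, and Maml3 was last in both. The relatives that lie outside the group were low: Foxo6 had 1 read in Mir182mTg replicate 1 and 0 in the other 11 libraries, and Mamld1 stood between 3.36 and 8.44 CPM.

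Foxo3 was measured at 59.2 and 56.8 CPM in WT Basal, 50.8 and 47.6 in Mir182ΔM/ΔM Basal, 38.0 and 34.6 in WT RANKL, 35.5 and 32.7 in Control, 32.4 and 29.5 in Mir182mTg, and 20.4 and 19.4 in Mir182ΔM/ΔM RANKL. In that order only WT RANKL and Control overlapped, and every other neighbouring pair was apart. Foxo3 is the FoxO factor with 2 of the 8-base sites.

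Foxo4 was measured at 42.0 and 44.5 CPM in WT Basal, 36.5 and 38.9 in Mir182ΔM/ΔM Basal, 25.5 and 26.9 in Mir182mTg, 25.1 and 25.9 in Control, 22.4 and 25.6 in WT RANKL, and 12.7 and 13.5 in Mir182ΔM/ΔM RANKL. Mir182mTg, Control and WT RANKL overlapped with their neighbours, while the baseline libraries of the loss of function experiment lay above them and Mir182ΔM/ΔM RANKL below.

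Foxo1 had the most overlap between conditions. It was measured at 26.7 and 21.0 CPM in WT RANKL, 20.3 and 18.2 in Mir182ΔM/ΔM Basal, 20.8 and 17.4 in WT Basal, 19.2 and 15.8 in Mir182mTg, 19.0 and 14.8 in Control, and 16.8 and 13.0 in Mir182ΔM/ΔM RANKL. Only WT RANKL was apart from its neighbour in this order. In 6 of 6 conditions replicate 1 was above replicate 2, so part of its spread within a condition followed the replicate number.

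Maml1, the Mastermind gene with the highest level, was measured at 56.9 and 54.3 CPM in WT RANKL, 48.6 and 44.0 in Mir182ΔM/ΔM RANKL, 44.9 and 39.3 in WT Basal, 40.4 and 36.8 in Mir182ΔM/ΔM Basal, 37.0 and 37.5 in Mir182mTg, and 34.8 and 34.5 in Control. The RANKL-treated cells of both genotypes were thus on top, and the conditions between them and Control overlapped from neighbour to neighbour except for Mir182mTg and Control.

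Maml2 was measured at 26.1 and 26.0 CPM in Mir182ΔM/ΔM Basal, 28.4 and 22.0 in WT Basal, 15.5 and 13.9 in Mir182mTg, 13.4 and 12.4 in Control, 9.42 and 8.28 in WT RANKL, and 5.98 and 6.81 in Mir182ΔM/ΔM RANKL. Its ratio of highest to lowest value was the widest of the members, and only its first pair of conditions overlapped.

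Maml3 had another order. It was measured at 18.1 and 14.7 CPM in Control, 14.9 and 13.0 in Mir182mTg, 10.9 and 9.25 in WT RANKL, 7.92 and 8.28 in Mir182ΔM/ΔM Basal, 7.80 and 6.81 in WT Basal, and 5.85 and 5.19 in Mir182ΔM/ΔM RANKL. Control and Mir182mTg overlapped, and the other neighbours were apart. WT RANKL and the gain of function libraries, which share the Lyz2 and Ifi202b state, were its 3 highest conditions.

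RANKL lowered 4 of the 6 transcripts in cells without miR-182. This comparison asks how the members respond to RANKL when the miRNA is deleted, and the libraries it contrasts share one Lyz2 and Ifi202b state. The log2 fold changes, on the log2(CPM + 1) scale, were -1.27 ± 0.08 (SE) for Foxo3, -1.45 ± 0.09 for Foxo4, -1.88 ± 0.14 for Maml2 and -0.48 ± 0.12 for Maml3. The adjusted p of limma, over all 11691 genes tested, was 1.47e-05 for Foxo3, 1.45e-05 for Foxo4, 2.77e-05 for Maml2 and 0.0102 for Maml3. In Foxo1, Foxo3, Foxo4, Maml2 and Maml3, both RANKL libraries lay below both baseline libraries, and in Maml1 both lay above. How many of all genes were separated like this was not computed. Foxo1 had -0.35 ± 0.17 (adjusted p = 0.107) and Maml1 +0.25 ± 0.10 (adjusted p = 0.0572). By the same test 26.4% of all genes were lower and 30.4% higher, so 4 members lower of 6 and 0 higher stand beside a background in which both directions were common. The median log2 fold change was -0.87 over the members and 0.05 over all genes. When the replicate number was a block in the fit, so that libraries are compared within a number (the replicate block), Foxo1 (adjusted p = 0.000185) was also lower and Maml1 (adjusted p = 1.00e-04) higher, against 36.3% of all genes lower and 42.7% higher in that fit. Maml3 missed the threshold without Mir182ΔM/ΔM Basal replicate 2 (adjusted p = 0.0541) or Mir182ΔM/ΔM RANKL replicate 2 (adjusted p = 0.0622), and Maml1 passed it without WT Basal replicate 2 (adjusted p = 0.0497). In bulk RNA, fewer cells of a type and less RNA per cell cannot be told apart. The osteoclast markers rose, the neutrophil markers fell from 109.4 to 115.1 CPM to 7.19 to 7.36 CPM summed over 7 markers with none at 0, and the endothelial markers rose from 8.03 to 8.51 CPM to 106.3 to 107.6 CPM over 4 markers with none at 0. Their part in the results was not tested.

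In WT cells the calls of Foxo1, Foxo3, Foxo4 and Maml3 depended on the baseline used, and the sign of Foxo3 and Maml3 turned. Against WT Basal, limma gave log2 fold changes of -0.66 ± 0.08 (SE) for Foxo3 (adjusted p = 0.000317), -0.83 ± 0.09 for Foxo4 (adjusted p = 0.000204) and -1.40 ± 0.14 for Maml2 (adjusted p = 9.81e-05), 3 members lower. Maml1 at +0.40 ± 0.10 (adjusted p = 0.00942) and Maml3 at +0.41 ± 0.12 (adjusted p = 0.0177) were higher, and Foxo1 had +0.30 ± 0.17 (adjusted p = 0.148). The background was 22.0% of all genes lower and 40.6% higher. The osteoclast markers were higher (10 of 10) in this comparison, and the macrophage (8 of 8) and neutrophil markers (7 of 7) were lower. The neutrophil sum went from between 90.9 and 100.04 CPM to between 21.9 and 22.2 CPM. The endothelial sum went from 3.93 to 4.28 CPM to 24.3 to 26.4 CPM. Of the 3 endothelial markers tested, however, 1 was higher and 1 lower, with a median log2 fold change of -0.02. The part of all these markers in the members' values was not tested.

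The 2 members that were higher lost that call under another scaling, unless the replicate block was also in the fit. The median of all genes in this contrast was 0.187 on the deposited scale and -0.004 with TMM factors, and 64.8% of the genes called were higher on the deposited scale against 48.6% with TMM. With TMM factors Maml1 had 0.19 (adjusted p = 0.121) and Maml3 0.23 (adjusted p = 0.130), while Foxo3, Foxo4 and Maml2 stayed lower. With TMM factors and the replicate block together Maml1 (adjusted p = 0.00177) and Maml3 (adjusted p = 0.0417) were again higher. Maml1 also missed the threshold without WT Basal replicate 2 (adjusted p = 0.0573) or WT RANKL replicate 1 (adjusted p = 0.0527), as did Maml3 (adjusted p = 0.0973 and 0.107). In the blocked fit Foxo1 was higher as well (adjusted p = 0.000778), and 52.8% of all genes were higher and 29.0% lower.

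Control Basal was then taken as the baseline, since those cells also have LysMcre and unaltered Mir182 and share the Lyz2 and Ifi202b state of the libraries labelled WT RANKL. This choice was made after the data had been seen, and it compares 2 experiments. Foxo3 then had +0.09 ± 0.08 (limma, adjusted p = 0.390) and Foxo4 -0.08 ± 0.08 (adjusted p = 0.428), so neither was called. Maml3 was lower, at -0.65 ± 0.13 (adjusted p = 0.00211), in place of higher. Maml2 remained lower at -0.50 ± 0.13 (adjusted p = 0.00854) and Maml1 higher at +0.67 ± 0.08 (adjusted p = 0.000136), and Foxo1 was higher at +0.48 ± 0.18 (adjusted p = 0.0485). In that fit 23.1% of all genes were lower and 29.6% higher. On the deposited scale and without the block, Maml2 and Maml1 were called in the same direction against both baselines. Foxo4 and Foxo1 kept their sign, but Foxo4 was called against WT Basal alone and Foxo1 against Control Basal alone.

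**Figure D2:**
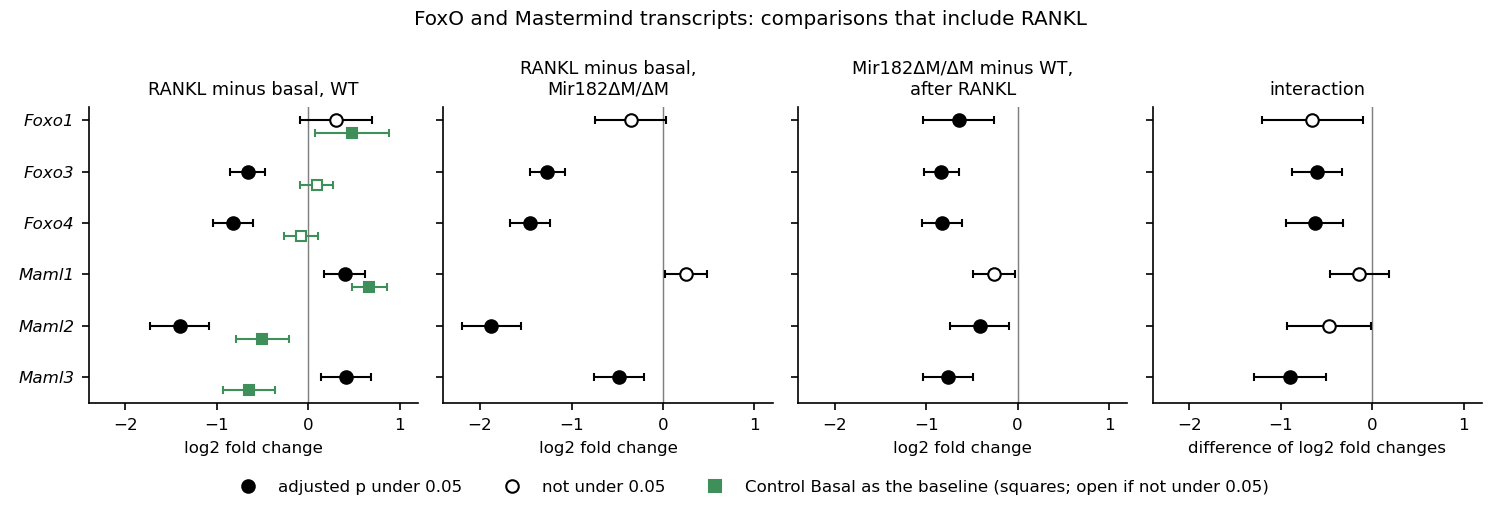
Log2 fold changes on the log2(CPM + 1) scale (x axis) of the 6 genes (y axis) in the 4 comparisons that include RANKL, with 95% confidence intervals from limma; filled circles have an adjusted p under 0.05, and the squares give the WT response with Control Basal as the baseline. In Mir182ΔM/ΔM cells Foxo3, Foxo4, Maml2 and Maml3 lie below 0, and in the genotype comparison after RANKL all 6 points lie below 0, while the circles and squares of the WT response differ most for Foxo3, Foxo4, Maml2 and Maml3.

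After RANKL, 5 of the 6 transcripts were lower in Mir182ΔM/ΔM than in WT cells and 0 were higher. This comparison asks whether the reported targets are raised where the miRNA is lost in differentiating cells. The limma log2 fold changes were -0.64 ± 0.17 (SE) for Foxo1 (adjusted p = 0.0173), -0.84 ± 0.08 for Foxo3 (adjusted p = 0.0002), -0.82 ± 0.09 for Foxo4 (adjusted p = 0.000406), -0.41 ± 0.14 for Maml2 (adjusted p = 0.0433) and -0.76 ± 0.12 for Maml3 (adjusted p = 0.00177). Maml1 had -0.26 ± 0.10 (adjusted p = 0.0636). In each of the 6 genes both Mir182ΔM/ΔM libraries lay below both WT libraries. The share of all genes separated in this way was not computed. Foxo3, at 20.4 and 19.4 CPM against 38.0 and 34.6, had the lowest of these log2 fold changes. The comparison shares its libraries with both RANKL responses above, so their values do not add up to separate evidence.

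The background was 30.9% of all genes lower and 14.3% higher, and the median was -0.70 over the members and -0.14 over all genes. With TMM factors the median of all genes was -0.004 and the share of calls that were higher went from 31.6% to 50.8%. Foxo1, Foxo3, Foxo4 and Maml3 were lower with TMM factors too, and Maml2 had -0.28 (adjusted p = 0.141). With TMM factors and the replicate block together Maml2 passed (adjusted p = 0.0200) and Maml1 did not (adjusted p = 0.0560), which makes 5 lower. Foxo1 missed the threshold without Mir182ΔM/ΔM RANKL replicate 2 (adjusted p = 0.0967) or WT RANKL replicate 1 (adjusted p = 0.0946), and Maml2 missed it without any one of 6 libraries, with adjusted p from 0.0666 to 0.188. In the blocked fit Maml1 also passed (adjusted p = 9.47e-05), which makes 6 lower, and in that fit 49.7% of all genes were lower and 23.4% higher. The osteoclast markers (9 of 10 lower), the neutrophil markers (6 of 7 lower), the endothelial markers (3 of 3 tested higher, from between 24.3 and 26.4 CPM to between 106.3 and 107.6 CPM), the macrophage markers (4 of 8 higher, 1 lower) and the Lyz2 and Ifi202b state moved with this comparison. Their part in it was not tested.

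The difference between the responses of the genotypes passed the test for Foxo3, Foxo4 and Maml3. The interaction, the RANKL response in Mir182ΔM/ΔM cells minus that in WT cells, was -0.60 ± 0.11 (SE) for Foxo3 (limma, adjusted p = 0.00863), -0.63 ± 0.13 for Foxo4 (adjusted p = 0.0127) and -0.90 ± 0.17 for Maml3 (adjusted p = 0.0078). Foxo1 had -0.66 ± 0.23 (adjusted p = 0.0854), Maml2 -0.47 ± 0.19 (adjusted p = 0.125) and Maml1 -0.14 ± 0.14 (adjusted p = 0.510). Against the baseline of each genotype, Foxo3 and Foxo4 were lower after RANKL in both genotypes and more so without miR-182. Maml3 was higher in WT and lower in Mir182ΔM/ΔM cells. Against Control Basal, Foxo3 and Foxo4 were not called in WT RANKL cells, and Maml3 was lower there. The background was 17.1% of all genes lower and 7.44% higher. The median was -0.62 over the members and -0.15 over all genes, and with TMM factors the latter was 0.005 and the share of calls that were higher went from 30.3% to 49.3%. With TMM factors Foxo3, Foxo4 and Maml3 again passed, and the value of Maml1 changed sign to +0.03. Foxo4 missed the threshold without Mir182ΔM/ΔM Basal replicate 2 (adjusted p = 0.0532), and Maml2 passed it without WT Basal replicate 1 (adjusted p = 0.0447). Under the replicate block Foxo1 (adjusted p = 1.70e-05) and Maml2 (adjusted p = 0.00644) passed too, which makes 5 lower against 42.8% of all genes lower and 16.1% higher. The interaction contains the WT RANKL libraries, so the limit on their Lyz2 and Ifi202b state applies to it as well.

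At baseline the loss of miR-182 raised none of the 6 transcripts by the test. This is the comparison of the genotypes without RANKL, in libraries that share one Lyz2 and Ifi202b state. In limma 0 of 6 members passed in either direction, against 1.10% of all genes lower and 2.71% higher. The log2 fold changes were -0.23 ± 0.08 (SE) for Foxo3 (adjusted p = 0.211), -0.19 ± 0.09 for Foxo4 (adjusted p = 0.377), -0.12 ± 0.10 for Maml1 (adjusted p = 0.663), +0.01 ± 0.17 for Foxo1 (adjusted p = 0.990), +0.06 ± 0.14 for Maml2 (adjusted p = 0.927) and +0.13 ± 0.12 for Maml3 (adjusted p = 0.698). Foxo3 alone had an unadjusted p under 0.05 (0.0234), and edgeR on the reads recovered from the CPM called 0 of 6. For Foxo3 and Foxo4 both Mir182ΔM/ΔM libraries lay below both WT libraries, and for Maml3 both lay above. The share of all genes separated in either direction was not computed.

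How large a rise these data allow depends on single libraries. The upper bound of the 95% interval was -0.04 for Foxo3, +0.02 for Foxo4, +0.11 for Maml1, +0.38 for Maml2, +0.40 for Foxo1 and +0.41 for Maml3 on the log2 scale. Leaving out 1 library took the bound of Foxo3 to as much as +0.07 (without Mir182ΔM/ΔM Basal replicate 2), of Foxo4 to +0.15 (without Mir182ΔM/ΔM Basal replicate 1) and of Maml1 to +0.24 (without Mir182ΔM/ΔM Basal replicate 2). Without WT Basal replicate 1 the bound was +0.62 for Foxo1, +0.56 for Maml2 and +0.57 for Maml3. Under the replicate block 2 members passed, both lower in Mir182ΔM/ΔM cells: Foxo3 (adjusted p = 0.00166) and Foxo4 (adjusted p = 0.0198). In that fit 12.7% of all genes were lower and 18.6% higher. For comparison, Eif2ak2, the gene of the kinase PKR, is named by the study as a miR-182 target. The study picked it partly by a rise with loss and a fall with gain of miR-182 in these data. Its values here and below are thus no independent check. Eif2ak2 was at 170.6 and 156.3 CPM in Mir182ΔM/ΔM Basal against 121.3 and 102.6 in WT Basal, a change of +0.55 ± 0.10 (limma, adjusted p = 0.0318).

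The gain of miR-182 lowered none of the 6 transcripts by the test. Between Mir182mTg and Control BMMs, edgeR gave -0.24 ± 0.14 (SE) for Maml3, -0.15 ± 0.10 for Foxo3, +0.03 ± 0.09 for Foxo4, +0.04 ± 0.16 for Foxo1, +0.10 ± 0.08 for Maml1 and +0.18 ± 0.11 for Maml2, with adjusted p from 0.931 to 0.9997 over 12081 genes. No member had an unadjusted p under 0.05, and DESeq2 called 0 of 6. The test called few genes at all, 0.157% of them lower and 0.0993% higher. Under the replicate block 8.15% were lower and 6.94% higher, and Maml3 was among the lower at -0.24 ± 0.08 (edgeR, adjusted p = 0.0383). Its 4 values were 14.9 and 13.0 CPM in Mir182mTg against 18.1 and 14.7 in Control, so the groups overlapped, although within each replicate number the Mir182mTg library was lower. The neutrophil markers stood at 106.8 to 117.2 CPM in Mir182mTg against 49.5 to 50.7 in Control, 7 of 7 higher under the block, and their part in the Maml3 value was not tested. Eif2ak2, which the study picked partly by this contrast, was at 77.9 and 72.7 CPM in Mir182mTg against 121.0 and 111.0 in Control. Its change was -0.63 ± 0.09 (edgeR, adjusted p = 0.0853).

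Loss and gain of miR-182 were then set against each other in one model, in which each experiment keeps its own controls. A transcript restrained by the miRNA would have a positive value of loss minus gain. None of the 6 passed in limma, against 1.91% of all 11382 genes higher and 1.19% lower. Maml3 had the only positive estimate, +0.35 ± 0.18 (SE, adjusted p = 0.432), and also the only pair of estimates in opposite directions that runs up with loss and down with gain. Its site is a 6-base match. Foxo4 had -0.23 ± 0.11 (adjusted p = 0.363), Maml1 -0.22 ± 0.12 (adjusted p = 0.479), Maml2 -0.12 ± 0.18 (adjusted p = 0.884), Foxo3 -0.10 ± 0.12 (adjusted p = 0.826) and Foxo1 -0.04 ± 0.22 (adjusted p = 0.980). In the blocked fit Maml3 was higher (adjusted p = 0.0305) and Foxo4 (adjusted p = 0.0191) and Maml1 (adjusted p = 0.0278) were lower, against 18.0% of all genes higher and 13.9% lower. Eif2ak2, picked by the study partly for opposite changes in these data, had +1.16 ± 0.14 (limma, adjusted p = 0.00754).

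**Figure D3:**
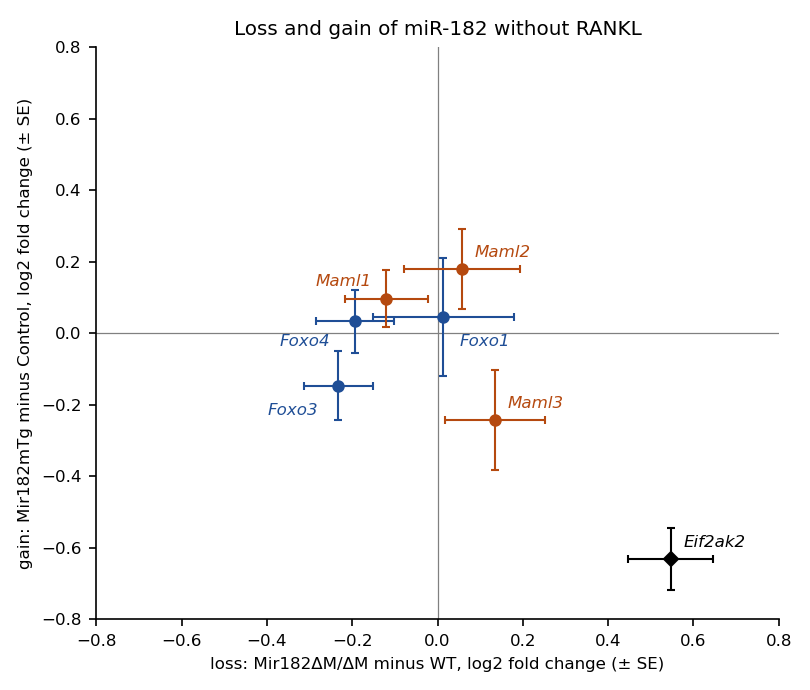
Log2 fold change at baseline with loss of miR-182 (x axis, Mir182ΔM/ΔM minus WT, limma on log2(CPM + 1)) and with gain (y axis, Mir182mTg minus Control, edgeR), each point with its SE in both directions; FoxO genes are blue, Mastermind genes orange and Eif2ak2 a black diamond. The 6 genes lie within 0.25 of 0 on both axes, Maml3 to the lower right of the origin, and Eif2ak2 at +0.55 and -0.63. The study picked Eif2ak2 partly by loss and gain in these data.

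Of 13 other genes listed as reported miR-182 targets, 11 could be tested. Without RANKL 2 were higher in Mir182ΔM/ΔM cells and 0 lower: Eif2ak2 and Brca1 (+0.54 ± 0.07 SE, limma adjusted p = 0.00915), of which Brca1 had no TGCCAAA in its annotated 3′ UTRs. Of all genes 2.71% were higher and 1.10% lower in that comparison. Between Mir182mTg and Control cells 0 of 11 passed in edgeR, beside 0.157% of all genes lower, and 5 were lower and 0 higher under the replicate block, beside 8.15% and 6.94%. In loss minus gain 2 of 11 were higher and 0 lower in limma, beside 1.91% and 1.19% of all genes. Eif2ak2, which the study picked by loss and gain in these data, was among them. The median was +0.31 against 0.006 over all genes. Under the replicate block 6 were higher and 0 lower, beside 18.0% and 13.9%. After RANKL 3 were higher and 4 lower in Mir182ΔM/ΔM cells, beside 14.3% and 30.9% of all genes, with Cttn, which codes for the actin regulator cortactin, at -1.45 ± 0.09 (limma, adjusted p = 2.95e-05) and Mitf, an osteoclast transcription factor, at -0.84 ± 0.11 (adjusted p = 0.000784). In this comparison the genes with an 8-base match did not share one direction. Cttn, Mitf and Rarg (-1.24, adjusted p = 0.000469) were lower, like Foxo1 and Foxo3, while Rasa1 was higher (+0.52, adjusted p = 0.0423), and Clock (-0.22) and Mtss1 (-0.26) did not pass. In edgeR, gain of miR-182 gave values below 0 for Rarg (-0.66), Rasa1 (-0.48), Cttn (-0.35), Clock (-0.34), Foxo3 (-0.15), Mtss1 (-0.09) and Mitf (-0.05). Foxo1 had +0.04, and none of these genes passed. With loss at baseline Cttn (+0.15) and Foxo1 (+0.01) were above 0 and the rest below, again with none past the test. Rarg, Rasa1, Clock and Mtss1 were named after their values were seen, to complete the genes of this list with such a match that could be tested.

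The genes that regulate FoxO factors showed no common direction. The list of 27 PI3 kinase subunits, kinases, phosphatases and 14-3-3 partners was tested in full. At baseline 0 were called between the genotypes in limma, beside 2.71% of all genes higher and 1.10% lower. Under the replicate block 9 were higher and 3 lower, beside 18.6% and 12.7%. After RANKL 5 were higher and 7 lower in Mir182ΔM/ΔM than in WT cells, shares near the 14.3% and 30.9% of all genes, with a median of -0.04 against -0.14 over all genes. With TMM factors 9 were higher and 4 lower, beside 20.9% and 20.2% of all genes. Mdm2, a ubiquitin ligase, was higher by 1.03 ± 0.06 (SE, adjusted p = 1.96e-05). Pik3cb, a catalytic subunit of PI3 kinase, was lower, at -1.05 ± 0.07 (adjusted p = 3.04e-05). RANKL in Mir182ΔM/ΔM cells raised 9 and lowered 6 of the 27, beside 30.4% and 26.4% of all genes, with Pik3r5, a regulatory subunit, at +1.40 ± 0.05 (adjusted p = 1.49e-06) and Pik3cg, a catalytic subunit, at -1.10 ± 0.07 (adjusted p = 1.98e-05). In WT cells against WT Basal RANKL raised 10 and lowered 6, beside 40.6% and 22.0%. The number raised was 17 in the blocked fit, beside 52.8% of all genes, and 5 with Control Basal as the baseline, beside 29.6%. With TMM factors 5 were higher and 9 lower, beside 28.8% and 30.5%.

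The list of 30 FoxO target genes, whose products act in stress resistance, autophagy, atrophy and cell cycle arrest, was tested in full. With RANKL, 19 of 30 were lower and 7 higher in Mir182ΔM/ΔM cells, beside 26.4% of all genes lower and 30.4% higher. The median was -0.75 against 0.05 over all genes. Sesn1, a stress-induced inhibitor of mTORC1, went from 252.6 and 265.7 CPM to 69.8 and 73.7 (-1.84 ± 0.07 SE, limma adjusted p = 1.26e-06). Irs2, an insulin receptor substrate, went from 10.4 and 11.8 CPM to 2.43 and 2.83 (-1.73 ± 0.16, adjusted p = 7.83e-05). Klf4, a transcription factor, rose from 17.0 and 15.4 CPM to 62.7 and 50.2 (+1.73 ± 0.12, adjusted p = 2.01e-05).

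In WT cells RANKL lowered 19 of the 30 FoxO target genes and raised 8 against WT Basal, beside 22.0% of all genes lower and 40.6% higher, with a median of -0.46 against 0.187 over all genes. Cat, the gene of catalase, went from 1112 and 969.6 CPM to 394 and 339.4 (-1.50 ± 0.11 SE, limma adjusted p = 2.47e-05), and Bcl2l11, the gene of the death factor Bim, rose from 79.9 and 81.9 CPM to 169.6 and 169.8 (+1.06 ± 0.06, adjusted p = 5.67e-06). The Control libraries held 57.9 and 61.1 CPM of Bcl2l11 and also more Cat than WT RANKL, so for these genes WT RANKL lay on the same side of both baselines. With Control Basal as the baseline 11 of the 30 were lower and 11 higher, beside 23.1% and 29.6% of all genes. The excess of lower over higher genes of this list in WT cells was thus seen against WT Basal and not against Control Basal. The share of lower genes in the list was above that of all genes against both baselines. Against Control Basal the share of higher genes was above it too.

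Between the genotypes after RANKL, 16 of the 30 FoxO target genes were lower and 5 higher in Mir182ΔM/ΔM cells, beside 30.9% and 14.3% of all genes, with a median of -0.40 against -0.14 over all genes. With TMM factors 13 were lower and 5 higher, beside 20.2% and 20.9%. Fbxo32, the gene of the ubiquitin ligase atrogin-1, was at 2.27 and 2.71 CPM against 10.1 and 10.3 (-1.69 ± 0.10 SE, limma adjusted p = 2.07e-05). Cited2, a coregulator of CBP and p300, was at 78.2 and 58.3 CPM against 217.7 and 180 (-1.54 ± 0.20, adjusted p = 0.000756). Cdkn1a, the gene of the cell cycle inhibitor p21, was higher at 402.4 and 397.2 CPM against 220.8 and 235.1 (+0.81 ± 0.08, adjusted p = 0.000227).

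At baseline 4 of the 30 FoxO target genes were lower and 0 higher in Mir182ΔM/ΔM cells, beside 1.10% of all genes lower and 2.71% higher. Fbxo32 was at 4.74 and 4.78 CPM against 7.67 and 7.13 in WT (-0.55 ± 0.10 SE, limma adjusted p = 0.0327). Gabarapl1, which acts in autophagosome formation, was at 121.1 and 119.2 CPM against 173.5 and 158.6 (-0.46 ± 0.07, adjusted p = 0.0148). Pink1, a kinase of mitochondrial quality control, was at 61.4 and 61.3 CPM against 81.1 and 87.6 (-0.45 ± 0.08, adjusted p = 0.0251). The median of the list was -0.13 against 0.01 over all genes. Under the replicate block 15 were lower and 5 higher, beside 12.7% and 18.6% of all genes. Between Mir182mTg and Control cells 0 of 30 were called in edgeR, beside 0.157% of all genes lower and 0.0993% higher. With the block 4 were lower and 4 higher, beside 8.15% and 6.94%.

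On the Notch side, only 5 of 9 listed ligands and receptors were expressed enough to be tested, and 4 of them were lower in Mir182ΔM/ΔM than in WT cells after RANKL, beside 30.9% of all genes. Notch1, a receptor, fell with RANKL in both genotypes against their own baselines. It went from 104.7 and 114.1 CPM to 12.8 and 10.98 in Mir182ΔM/ΔM cells (-3.10 ± 0.09 SE, limma adjusted p = 5.02e-07) and from 116.5 and 117.2 CPM to 29.5 and 28.1 in WT cells (-1.98 ± 0.09, adjusted p = 2.42e-06). Control libraries, which share the Lyz2 and Ifi202b state of WT RANKL, held 86.2 and 94.97 CPM of Notch1, also above WT RANKL. Jag1, a ligand, went from 31.2 and 30.4 CPM to 5.55 and 6.65 with RANKL in Mir182ΔM/ΔM cells (-2.17 ± 0.12, adjusted p = 8.08e-06), and the WT RANKL libraries stood at 21.7 and 22.6.

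The partners of Mastermind in the Notch transcription complex showed no common direction between the genotypes. Of 14 tested, 0 were called at baseline in limma, beside 2.71% of all genes higher and 1.10% lower. Under the replicate block 4 were called there (3 higher, 1 lower), beside 18.6% and 12.7%. After RANKL 2 were higher and 2 lower, beside 14.3% and 30.9%. In the blocked fit after RANKL 6 were higher and 6 lower, beside 23.4% and 49.7%. Rbpj, the DNA-binding partner, was lower after RANKL in Mir182ΔM/ΔM cells, at -0.99 ± 0.06 (SE, adjusted p = 1.39e-05) and in WT cells, against WT Basal, at -1.25 ± 0.06 (adjusted p = 3.67e-06). Control libraries held 204.5 and 196.6 CPM of Rbpj against 132.0 and 125.7 in WT RANKL. Of 18 genes of Notch cleavage, modification and turnover, 3 rose and 3 fell with RANKL in Mir182ΔM/ΔM cells, beside 30.4% and 26.4% of all genes. Psen2, a γ-secretase subunit, was among those that fell, at -1.02 ± 0.07 (adjusted p = 1.85e-05). With the block 8 of the 18 rose and 6 fell, beside 42.7% and 36.3% of all genes.

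The Notch target genes themselves were mostly not expressed. Only 2 of 12 passed the filter on low values, Myc and Ccnd1, both of which answer to many other inputs. Ccnd1, the gene of cyclin D1, was higher without miR-182 at baseline, at 626.5 and 587.7 CPM against 361.1 and 337.1 in WT (+0.80 ± 0.07 SE, limma adjusted p = 0.00231). Hes1 and Hey1, the classical targets, were at most 0.212 and 0.378 CPM in any library.

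**Figure D4:**
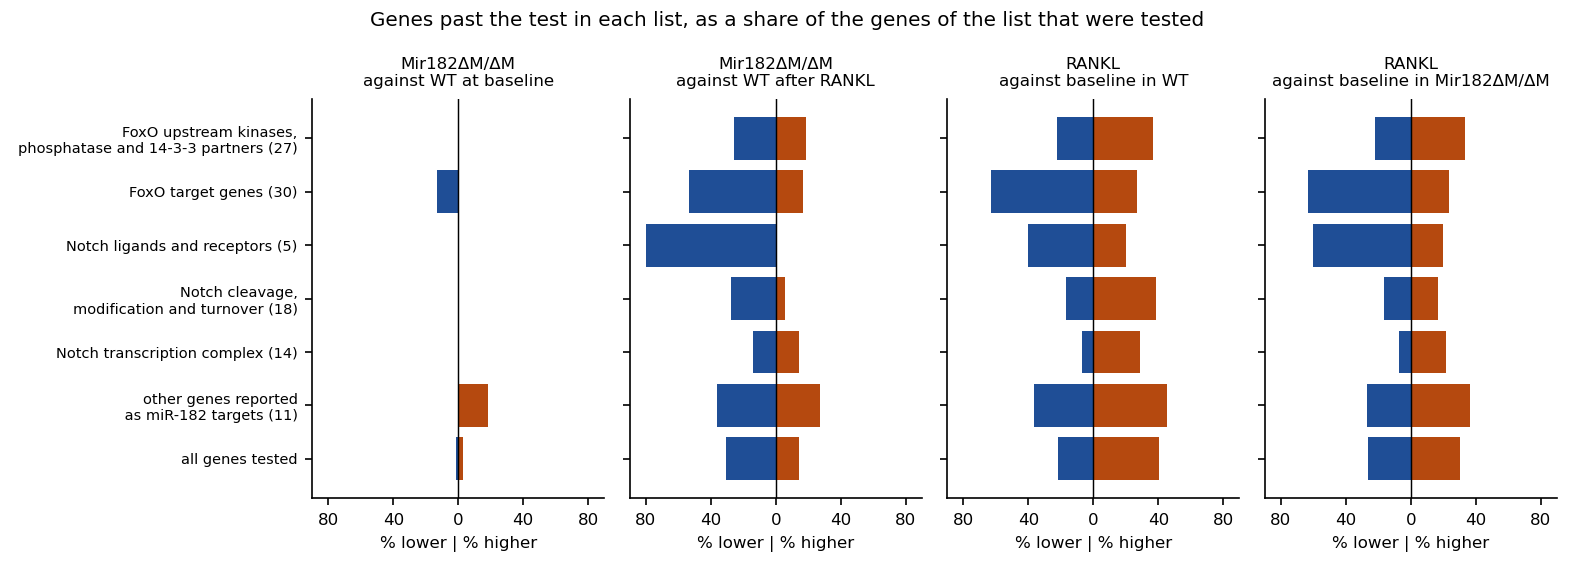
Share of the tested genes of each list that were higher (orange, right) or lower (blue, left) in 4 comparisons, by limma with an adjusted p under 0.05 (x axis in percent; the number of tested genes follows each list's name), with all genes tested in the last row. In both RANKL responses 19 of 30 FoxO target genes were lower, the longest blue bar among the 6 lists drawn, and the Notch transcription complex has short bars in both directions.

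The genes whose pattern over the 12 libraries was closest to each member were found by Pearson's r on log2(CPM + 1) among 9786 genes with at least 5 CPM on average. The libraries share the replicate batches, the RANKL treatment and the Lyz2 and Ifi202b state, so such values describe these 12 points and carry no p. Foxo4 was followed most closely by Dusp22 (r = 0.996), Rabep2 (r = 0.996) and Litaf (r = 0.991), and Foxo3 by Gab1 (r = 0.993), Ttc3 (r = 0.989) and Rasa3 (r = 0.987). Maml2 had Ccdc125 (r = 0.987), Npl (r = 0.985) and Aldh9a1 (r = 0.984). Foxo1 had Dym (r = 0.981), Asap1 (r = 0.972) and Pik3r1 (r = 0.952), the last being the regulatory subunit of PI3 kinase. Maml1 had Otud5 (r = 0.978), Rest (r = 0.973) and Pnpla2 (r = 0.973), and Maml3 had Hmgn3 (r = 0.978), Plekha8 (r = 0.974) and Elk3 (r = 0.972). Among the members themselves Foxo3 and Foxo4 were closest (r = 0.957), followed by Foxo4 and Maml2 (r = 0.926) and Foxo3 and Maml2 (r = 0.882). Maml1 and Maml2 ran most against each other (r = -0.479), and Maml1 and Maml3 nearly as much (r = -0.452).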

How the data were processed

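For the 8 loss of function libraries the authors deposited CPM, and for the 4 gain of function libraries raw counts per gene. For replicate 1 the deposited files also held RPKM. Per the labels, reads were aligned to mm10 with TopHat (replicate 1, with Cufflinks) or HISAT2 (replicate 2, with HTSeq and edgeR), and replicate 1 is given as polyA RNA and replicate 2 as total RNA. All CPM values above 0 were whole multiples of 1 read (100%, tolerance 0.01 read). Counts were scaled to 1000000 for display. The 27 names turned into dates were left unnamed.

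CPM were tested with limma 3.58.1 (lmFit, eBayes with trend) on log2(CPM + 1), keeping a gene that reached 1 CPM in 2 or more of the fitted libraries, with 1 mean per group. Counts were tested with edgeR 4.0.16 (TMM, filterByExpr, quasi-likelihood), whose SE is the absolute log2 fold change over the square root of F. P-values were adjusted by Benjamini-Hochberg over all genes tested, with a threshold of 0.05. Alternatives included pseudocount 0.1, other filters and scalings, edgeR on recovered reads, DESeq2 1.42.0, each library left out, and the replicate number as a block. Replicate 2 minus replicate 1 correlated between all 15 pairs of conditions (r = 0.711 to 0.776), also across the loss and gain of function experiments. The replicate number thus marks a shared difference, which cannot be told apart from the labels for RNA and aligner. The main fits leave the number out, so their spread includes this difference, and the blocked fits take it out. Scripts were tested on simulated counts.

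Genes named from lists were the 3 with the largest change per direction that passed, agreed in both replicates and reached 5 CPM. Members and lists were chosen with earlier results of these data known. Protein sequences were not used here, and 1 gene that the naming rule picks is not reported here.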

Additional observations from a re-analysis of the deposited data

Results flagged for a closer look

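The RANKL response of Foxo3 differed between the genotypes by -0.60 on the log2 scale, that of Foxo4 by -0.63 and that of Maml3 by -0.90, each as Mir182ΔM/ΔM minus WT and each past the interaction test of limma. All of them include the libraries labelled WT RANKL, whose Lyz2 and Ifi202b levels differ from those of the other loss of function libraries, and the part of that difference was not tested.

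The row of the Mir182 precursor, which no comparison used, held 2.39 and 4.40 CPM in the Mir182mTg libraries (79 and 123 reads), against 0 reads in both Control libraries. The study describes poly-A purification for its libraries, while replicate 2 is labelled total RNA. Poly-A libraries do not measure mature miRNA.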

How the results depend on the processing

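Of 672 values of members' log2 fold changes under an alternative, 597 kept their direction and their side of the threshold. The number of members past it moved by over 1.5 times as follows. With the replicate block, which pairs libraries by number, it was 2 in place of 0 for the genotypes at baseline (3 with TMM factors), 5 in place of 3 for the interaction, 1 in place of 0 for Mir182mTg and 3 in place of 0 for loss minus gain (3 with TMM factors). With TMM factors, quantile normalization or edgeR it was 3 in place of 5 for RANKL in WT, and with quantile normalization 3 in place of 5 for the genotypes after RANKL. Leaving out 1 library gave 3 to 5 members for the genotypes after RANKL and 3 to 5 for RANKL in WT. Site counts were 4 members with TGCCAAA, 2 with the match to bases 2 to 8 and 2 with the 8-base match.

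Signs changed for values near 0 and, with another baseline, for the larger values of Foxo3 and Maml3 in WT cells. Foxo1 at baseline had -0.00092 with TMM factors (with and without the replicate block), -0.022 with quantile normalization and -0.0072 with edgeR. Leaving out 1 library gave -0.11 to 0.13 for Foxo1 and -0.12 to 0.24 for Maml2 at baseline (Maml2 below 0 without WT Basal replicate 2), -0.12 to 0.23 for Foxo1 and -0.0043 to 0.067 for Foxo4 in Mir182mTg, and -0.21 to 0.13 for Foxo1 and -0.29 to 0.062 for Maml2 in loss minus gain. With Control Basal as the baseline of WT RANKL, Foxo3 had 0.089 in place of -0.66 and Maml3 -0.65 in place of +0.41, with or without the replicate block. The interaction of Maml1 was 0.025 with TMM factors (also with the replicate block) and 0.031 with edgeR. Counts of all genes past the threshold moved with the block from 446 to 3651 (genotypes at baseline), 5275 to 8555 (after RANKL), 2875 to 6889 (interaction), 31 to 1822 (Mir182mTg) and 353 to 3639 (loss minus gain). For Mir182mTg DESeq2 gave 124 and no filter 141, and the baseline libraries alone gave 102 for the genotypes. Leaving out 1 library gave 97 to 293 genes at baseline, 55 to 166 for Mir182mTg and 126 to 176 for loss minus gain. The cause of these shifts was not tested. At 2 libraries per group, small changes are beyond the tests.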

Other observations

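Mamld1, a Mastermind-like gene outside the group, was higher after RANKL in Mir182ΔM/ΔM cells (+0.71 ± 0.23 SE, limma adjusted p = 0.0336), with 8.44 and 5.90 CPM against 4.63 and 3.36 at baseline. Its direction was opposite to those of Maml2 and Maml3 in the same comparison.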
